A study of Mus musculus with 8 samples.

Results

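Acetylation of histone H3 at lysine 27 (H3K27ac) was examined at 9 chemokine genes, Ccl2, Ccl3, Ccl4, Ccl6, Ccl9, Ccl12, Cxcl2, Cxcl10 and Cxcl16, in myeloid nuclei of the mouse brain. The members were all rows of the deposited region table whose gene name equals one of these symbols. This gave 82 of 129304 regions, each 800 bp wide, and 9 of 18707 genes. The table assigns each region to the gene with the nearest start site, so a region named here for a chemokine gene is not shown to regulate it. The study compared wild-type mice (WT) with GrnKO mice, which lack Grn, the gene of the secreted and lysosomal protein progranulin. All mice were C57BL/6 and 2 years old, and in both groups the brain was perfused and a hemibrain was frozen. The labels give no further allele, driver or agent for either group. Fixed nuclei were sorted as PU.1+, OLIG2- and NEUN-, a gate that holds microglia and can hold other PU.1-positive leukocytes. Nuclei of 2 mice were combined for every replicate. There were 2 such replicates of either genotype, and 1 H3K27ac and 1 input library were made from each.

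Chemokines are small secreted proteins that bind G protein-coupled receptors on leukocytes and direct their migration. In the brain, microglia and border macrophages are a main source of several CC chemokines, and many chemokine genes are kept inducible by enhancers that respond to NF-kappaB, AP-1 and interferon-regulated factors. H3K27ac marks active promoters and enhancers, and it does not measure RNA or protein. In a sorted population, fewer nuclei carrying the mark and less mark per nucleus cannot be told apart.

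The H3K27ac libraries held 15491642.5 to 20030832 tags and the inputs 4078179 to 14415969 tags. In the H3K27ac libraries, 49.4% of tags of WT replicate 1 fell in the listed regions, against 63.3% in WT replicate 2 and 64.8% and 65.7% in GrnKO replicates 1 and 2, so WT replicate 1 stands apart. The calls at the members and at the named neighbours, ligands, receptors and regulators are also given without it, while the marker lists and the similar genes were not recomputed. Values are normalised tags, that is tags per library of 10000000 tags divided by the library's TMM factor, a scaling factor that centres most regions between libraries. The region at the Grn start site, which checks the labels, held 357 and 300.1 normalised tags in WT replicates 1 and 2, and the GrnKO replicates were both at 0. Over all genes, limma called 1468 higher and 750 lower in GrnKO, and 1629 higher and 166 lower when the authors' scaling to library totals was kept without TMM. That scaling moved the median log2 change of all genes by 0.19 and of all regions by 0.22. The number of calls of lower signal thus depends on the scaling, and changes are given relative to the median gene or region.

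The sequences before 4 of the start sites are shown because the mark differed at or just inside the gene (Ccl9, Ccl3), or because these starts carried little of the mark and their letters hold matches to the kappaB consensus (Cxcl10, Cxcl2). Promoter sequences of 6 of the 9 members (Ccl3, Ccl6, Ccl9, Ccl12, Cxcl2 and Cxcl10) were matched in RefSeq (GRCm38.p6). The 250 bases before each start are printed 5′ to 3′ on the gene's own strand, and capitals mark matches to the kappaB consensus of NF-kappaB on either strand, where overlapping matches run together.
Ccl9 (chr11:83578637-83578886, minus strand): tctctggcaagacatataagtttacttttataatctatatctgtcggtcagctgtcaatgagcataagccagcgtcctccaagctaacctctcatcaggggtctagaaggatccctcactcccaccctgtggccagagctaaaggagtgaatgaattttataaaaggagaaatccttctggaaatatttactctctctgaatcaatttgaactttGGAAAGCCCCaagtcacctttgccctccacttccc
Ccl3 (chr11:83649379-83649628, minus strand): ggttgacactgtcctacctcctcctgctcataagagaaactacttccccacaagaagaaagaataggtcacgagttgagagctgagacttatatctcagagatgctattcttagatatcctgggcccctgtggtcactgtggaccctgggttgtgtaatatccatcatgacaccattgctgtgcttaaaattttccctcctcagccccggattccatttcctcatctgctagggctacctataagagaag
Cxcl10 (chr5:92348890-92349139, minus strand): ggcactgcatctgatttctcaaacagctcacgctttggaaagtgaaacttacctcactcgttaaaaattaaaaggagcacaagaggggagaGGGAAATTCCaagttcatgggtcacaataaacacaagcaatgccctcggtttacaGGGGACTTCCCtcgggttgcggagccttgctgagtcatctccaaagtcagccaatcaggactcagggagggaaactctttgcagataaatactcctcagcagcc
Cxcl2 (chr5:90903649-90903898, plus strand): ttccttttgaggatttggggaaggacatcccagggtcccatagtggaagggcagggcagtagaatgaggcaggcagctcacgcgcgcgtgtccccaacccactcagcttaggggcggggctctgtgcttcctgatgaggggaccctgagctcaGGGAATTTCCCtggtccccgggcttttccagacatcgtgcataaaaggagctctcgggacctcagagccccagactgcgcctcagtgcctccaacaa
The kappaB consensus occurred in 3 of the 6 member promoters and in 7.25% of 32851 promoters of the same length. Its matches began 97 and 96 bases before the Cxcl2 start, which is one palindrome-like stretch read on both strands. In Cxcl10 they began 159, 104 and 103 bases before the start, and in Ccl9 35 bases before it. The AP-1 motif TGANTCA occurred before Cxcl10 and Ccl9 (6.75% of all promoters), and the interferon-stimulated response element of the IRF factors before Cxcl10 alone of the 6 (2.98% of all promoters). The TATA box letters TATAAA occurred before Ccl12 and Ccl9 (12.4% of all promoters). The letters GAGGAAGT (PU.1), TTGCNNAA (C/EBP), CACGTG (E-box), TCACATG (M-box) and TTCNNNGAA (STAT) were in none of the 6 windows, against 2.44%, 9.56%, 6.02%, 3.50% and 7.02% of all promoters. All motifs were searched on both strands, and a match is a description of letters.

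Signal summed over all regions of a gene was higher in GrnKO at Ccl2 and Ccl3 and lower at Ccl9, and the other 6 members did not pass the test. These 3 of 9 calls (2 higher, 1 lower) stand beside 14.4% of all 15380 tested genes called (9.54% higher and 4.88% lower). The 2 genotypes did not overlap at 8 of the 9 members, against 54.0% of all genes, and the median log2 change was 0.11 over the members and -0.01 over all genes. The members did not move one way. The log2 change was positive at Ccl2, Ccl3, Ccl4, Cxcl2 and Cxcl16 and negative at Ccl6, Ccl9, Ccl12 and Cxcl10. With 2 replicates per genotype an exact permutation test cannot go below p = 0.33, so every adjusted p below comes from limma across all genes or regions, with Benjamini-Hochberg adjustment, at a threshold of 0.05. Without WT replicate 1 the counts over the members were again 2 higher and 1 lower (19.9% of all genes called), and without WT replicate 2 they were 3 and 3 (21.4%). With the authors' scaling they were 3 higher and 0 lower (11.7%). Without GrnKO replicate 1 they were 1 higher and 0 lower, and without GrnKO replicate 2 they were 0 and 0. In those fits the calls over all genes fell too, to 5.88% and 7.45%.

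**Figure D1:**
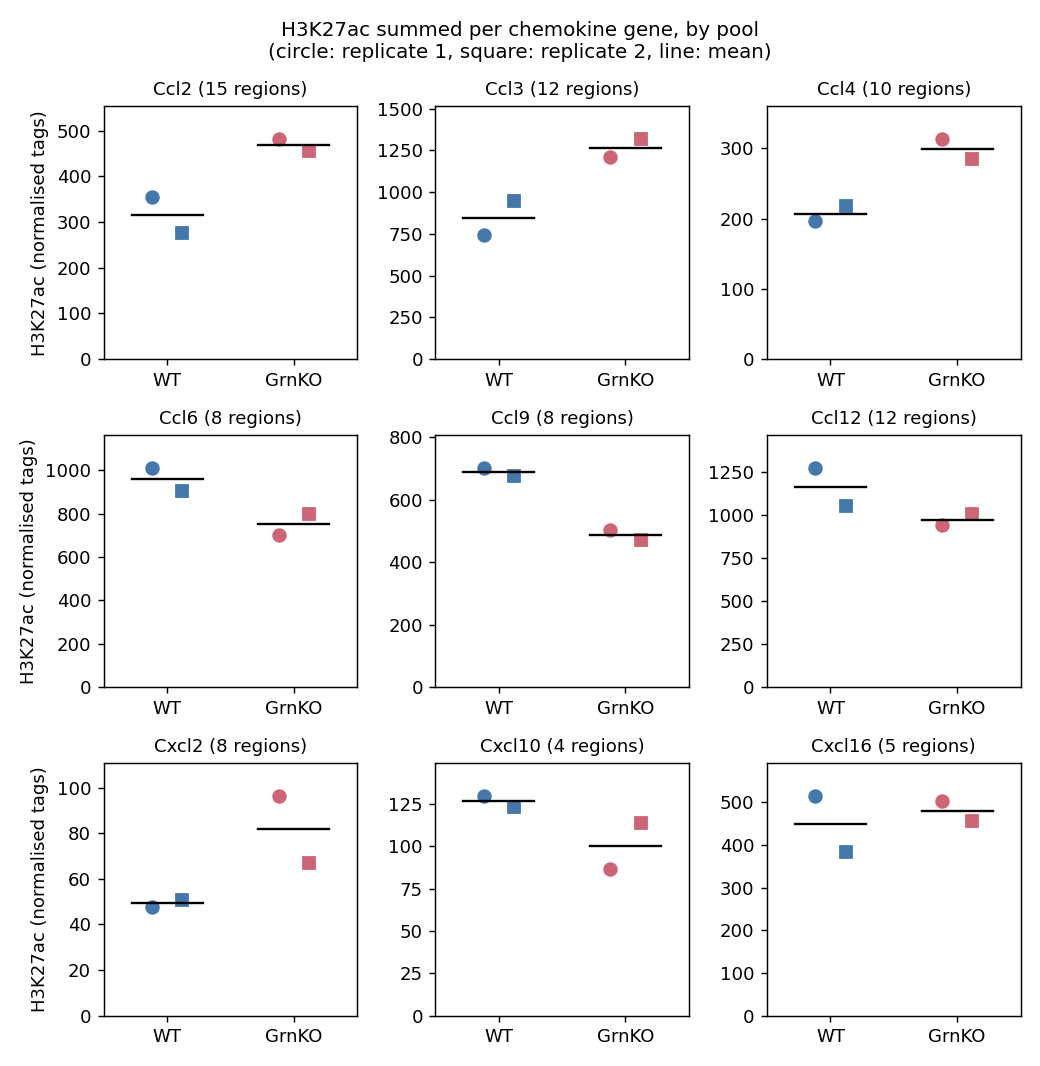
H3K27ac summed over all regions of each chemokine gene (y axis, normalised tags from 0) in the 2 WT and 2 GrnKO libraries, 1 point per library and 1 panel per gene. The GrnKO points lie above the WT points at Ccl2, Ccl3, Ccl4 and Cxcl2, below them at Ccl6, Ccl9, Ccl12 and Cxcl10, and among them at Cxcl16.

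Ccl3 and Ccl4, neighbouring genes of closely related inflammatory CC chemokines, had higher values in both GrnKO libraries. The 12 Ccl3 regions summed to 743 and 945 normalised tags in WT and 1212 and 1316 in GrnKO. This is a mean of 844 ± 143 for WT (SD, n = 2) against 1264 ± 73.8 for GrnKO (SD, n = 2), 1.5-fold higher, with a log2 change of 0.59 (SE 0.13, limma adjusted p = 0.00538). The lower GrnKO pool was thus above the higher WT pool. The log2 change was 0.42 without WT replicate 1 (adjusted p = 0.00196) and 0.79 without WT replicate 2, and without GrnKO replicate 2 it was 0.54 and no longer passed (adjusted p = 0.0655). The 10 Ccl4 regions summed to 197 and 217 in WT and 313 and 285 in GrnKO. Its log2 change of 0.53 (SE 0.17) was close to that of Ccl3 in size but missed the threshold, with a limma adjusted p of 0.0501. The 2 genotypes did not overlap at Ccl4. It passed with the authors' scaling (0.72, adjusted p = 0.0373) and without WT replicate 2 (0.62, adjusted p = 0.0122). It did not pass without WT replicate 1 (0.46, adjusted p = 0.0657), GrnKO replicate 1 (0.47, adjusted p = 0.450) or GrnKO replicate 2 (0.60, adjusted p = 0.202).

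At Ccl3 the called regions were one inside the gene and one past its end. The region in intron 2 of 2 (chr11:83648057-83648857, 921 bp from the start; mm10 is the build in the submitters' processing notes) held 107 and 151 normalised tags in WT and 248 and 278 in GrnKO. Its log2 change was 1.04 (SE 0.19, limma adjusted p = 0.00168). The intergenic region 9.66 kb past the start on the gene's own strand (chr11:83639320-83640120) was the Ccl3 region with the highest mean signal. It held 185 and 177 in WT and 319 and 349.7 in GrnKO, a log2 change of 0.88 (SE 0.15, adjusted p = 0.00116). A region that shares 189 bp with it, 9.05 kb past the start, was the strongest Ccl3 region in WT, with 219 and 235 in WT and 275 and 293 in GrnKO. It was named after its values were seen, and its log2 change of 0.32 did not pass (adjusted p = 0.202), nor without WT replicate 1 (0.28, adjusted p = 0.260). Both called regions remained past the threshold without any single library, including WT replicate 1 (0.80 and 0.92). The region nearest to the Ccl3 start, whose sequence is printed above, held 84.1 and 168 in WT and 156 and 191 in GrnKO. Its groups overlapped, and its log2 change of 0.54 did not pass (adjusted p = 0.203) and was 0.05 without WT replicate 1. At Ccl4 the highest mean over the 4 libraries, though not in WT alone, was in intron 2 of 2, 1.16 kb from the start (chr11:83663345-83664145). It held 66.1 and 65.7 in WT and 110.0 and 89.3 in GrnKO (log2 0.58, SE 0.24, adjusted p = 0.141). The region at the Ccl4 start held 57.5 and 77 in WT and 79.5 and 84.2 in GrnKO (log2 0.29, adjusted p = 0.530).

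Ccl2, a ligand of Ccr2 that recruits monocytes, had 15 regions that summed to 355 and 276 normalised tags in WT and 482 and 455 in GrnKO. The mean rose from 315 ± 55.9 to 468 ± 18.7 (SD, n = 2 each), 1.49-fold, with a log2 change of 0.58 (SE 0.16, limma adjusted p = 0.0230). The region at the start site did not pass the test. It held 23.5 and 23.6 in WT and 24 and 30.9 in GrnKO (log2 0.21, SE 0.39, adjusted p = 0.810). Called were 2 overlapping intergenic regions upstream of the gene, which share 132 bp and so are not independent. The region 28.3 kb upstream (chr11:82006853-82007653) had the highest mean of the Ccl2 regions, with 63.0 and 42.2 in WT and 106 and 97.6 in GrnKO (log2 0.96, SE 0.26, adjusted p = 0.0261). The region 27.7 kb upstream (chr11:82007521-82008321) held 12.1 and 11 in WT and 39.9 and 42.2 in GrnKO (log2 1.74, SE 0.42, adjusted p = 0.0120). A sum over regions that do not overlap each other gave a smaller change for Ccl2 that missed the threshold (0.47, adjusted p = 0.0702), and the call was also lost without GrnKO replicate 1 (0.55, adjusted p = 0.213) or 2 (0.63, adjusted p = 0.101). Without WT replicate 1 the Ccl2 sum changed by 0.77 (adjusted p = 5.03e-05) and both upstream regions remained past the threshold, while without either GrnKO replicate neither did.

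Ccl9 and Ccl6 encode rodent CC chemokines that bind Ccr1, and both had lower values in the GrnKO libraries. The 8 Ccl9 regions summed to 702 and 676 normalised tags in WT and 502 and 470.1 in GrnKO. The mean fell from 689 ± 18.4 to 486 ± 22.5 (SD, n = 2 each), a log2 change of -0.50 (SE 0.13, limma adjusted p = 0.0156). Replicates lay close together in both genotypes. The log2 change was -0.47 without WT replicate 1 (adjusted p = 0.00906). It did not pass without GrnKO replicate 1 (-0.54, adjusted p = 0.126), without GrnKO replicate 2 (-0.45, adjusted p = 0.224) or with the authors' scaling (-0.31, adjusted p = 0.483). The 8 Ccl6 regions summed to 1012 and 904 in WT and 701 and 799.9 in GrnKO, which did not overlap, and the log2 change of -0.35 (SE 0.12) missed the threshold (adjusted p = 0.0718; -0.27 and 0.136 without WT replicate 1).

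Of the start-site regions of the 9 genes, the Ccl9 start was the one called lower, at the TMM scaling and with all 4 libraries. This region (chr11:83578145-83578945, centred 91 bp past the start) covers the printed Ccl9 sequence and held 178 and 129.9 normalised tags in WT and 99.0 and 75.2 in GrnKO. Its log2 change was -0.81 (SE 0.23, limma adjusted p = 0.0290), and -0.58 without WT replicate 1, which did not pass (adjusted p = 0.0908). An intergenic region 18.0 kb past the Ccl9 start (chr11:83560207-83561007) held 102 and 128 in WT and 60.2 and 61.4 in GrnKO (log2 -0.90, SE 0.24, adjusted p = 0.0213). It remained past the threshold without WT replicate 1 (-1.05, adjusted p = 0.00143) and missed it without WT replicate 2 (-0.72, adjusted p = 0.0586). Neither Ccl9 region passed with the authors' scaling or without either GrnKO replicate. The Ccl9 region with the highest mean, at the transcript's end, held 196 and 185 in WT and 180.5 and 165 in GrnKO and did not pass (log2 -0.14, adjusted p = 0.675). The Ccl6 start region held 293 and 191 in WT and 152 and 171 in GrnKO. Its log2 change was -0.55 (adjusted p = 0.0867), and -0.24 without WT replicate 1.

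Ccl12, a second Ccr2 ligand of the mouse in the same chromosomal group as Ccl2, had the largest WT sum of the 9 genes. Its 12 regions summed to 1277 and 1052 normalised tags in WT and 944 and 1005 in GrnKO (log2 -0.25, SE 0.12, adjusted p = 0.201), and without WT replicate 1 the log2 change was -0.11 (adjusted p = 0.603). The groups did not overlap, but the nearest values of the genotypes, 1052 and 1005, were closer than the replicates of WT. At the start site the region held 419 and 371 in WT and 315 and 339 in GrnKO (log2 -0.27, adjusted p = 0.239). The partly overlapping region centred 554 bp upstream had the highest mean of all Ccl12 regions, with 440.3 and 368 in WT and 321 and 367 in GrnKO (log2 -0.23, adjusted p = 0.340). An intergenic region 13.6 kb upstream (chr11:82087796-82088596) was called lower, with 126 and 94.0 in WT and 52.3 and 66.4 in GrnKO (log2 -0.87, SE 0.25, adjusted p = 0.0349). Without WT replicate 1 its log2 change was -0.66 (adjusted p = 0.0989), and it also did not pass with the authors' scaling or without either GrnKO replicate. The Ccr2 ligands Ccl2 and Ccl12 had called regions in opposite directions, with no test of the difference between them.

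The 3 CXC members gave no call. Cxcl2, a Cxcr2 ligand that attracts neutrophils, had the lowest sum, 47.8 and 50.9 normalised tags in WT and 96.4 and 67.0 in GrnKO over 8 regions. Its log2 change of 0.69 (SE 0.30) was the largest of the 9 genes and did not pass (adjusted p = 0.150), and the GrnKO replicates differed from each other by more than the WT replicates. The strongest Cxcl2 region lay 5.26 kb upstream (chr5:90898236-90899036), with 12.5 and 22.5 in WT and 48.9 and 27.9 in GrnKO (log2 1.09, adjusted p = 0.127). Cxcl10, an interferon-induced ligand of Cxcr3, summed to 129.9 and 124 in WT and 86.9 and 114 in GrnKO over 4 regions (log2 -0.35, SE 0.23, adjusted p = 0.389). Most of that signal came from 1 region 4.92 kb upstream, in intron 2 of 10 of a transcript annotated there, with 119.7 and 116 in WT and 80.9 and 94.6 in GrnKO (log2 -0.43, adjusted p = 0.241). Cxcl16, a membrane-bound ligand of Cxcr6, summed to 515 and 382 in WT and 503 and 456 in GrnKO over 5 regions. Its groups overlapped and its log2 change was 0.11 (SE 0.16, adjusted p = 0.733). The Cxcl16 start region held 246 and 196 in WT and 179.6 and 185 in GrnKO (log2 -0.27, adjusted p = 0.376). It overlaps the promoter region of Zmynd15 (chr11:70458890-70459690, 279 and 203 in WT), so its level cannot be given to Cxcl16 alone. Without WT replicate 1 the sums changed by 0.65 at Cxcl2, -0.31 at Cxcl10 and 0.33 at Cxcl16, and none passed.

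The start sites of the 9 genes differed widely in their level of the mark. Regions have one width, so these levels can be compared between genes, although the Cxcl16 start region overlaps the promoter region of Zmynd15. In WT the mean was 395 ± 33.9 normalised tags at Ccl12, 242 ± 71.9 at Ccl6, 221 ± 35.2 at Cxcl16, 154 ± 34.2 at Ccl9, 126 ± 59.1 at Ccl3, 67.2 ± 13.8 at Ccl4 and 23.5 ± 0.08 at Ccl2 (SD, n = 2 each). Ccl6 and Cxcl16, and Ccl9 and Ccl3, are neighbours in this order that overlapped in WT. The Cxcl10 start held 7.82 and 1.31 in WT and 3.39 and 12.9 in GrnKO, with overlapping groups, and its log2 change of 0.79 had an SE of 0.95 (adjusted p = 0.674). The Cxcl2 start was too low to be tested, at 0.391 and 0.524 in WT and 1.70 and 0.692 in GrnKO, where the 3 tags taken as the floor of detection are worth 1.38 to 2.35. The kappaB-bearing sequences of Cxcl2 and Cxcl10 printed above, which were chosen partly for this, lie at the 2 starts with the least H3K27ac. The kappaB-bearing Ccl9 start lies in the middle of the order over the 4 libraries. No promoter sequence was searched for Ccl2, Ccl4 and Cxcl16, so kappaB letters cannot be set against the order of all 9 starts. A difference between genotypes was not detectable at this depth at the Cxcl2 start.

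**Figure D2:**
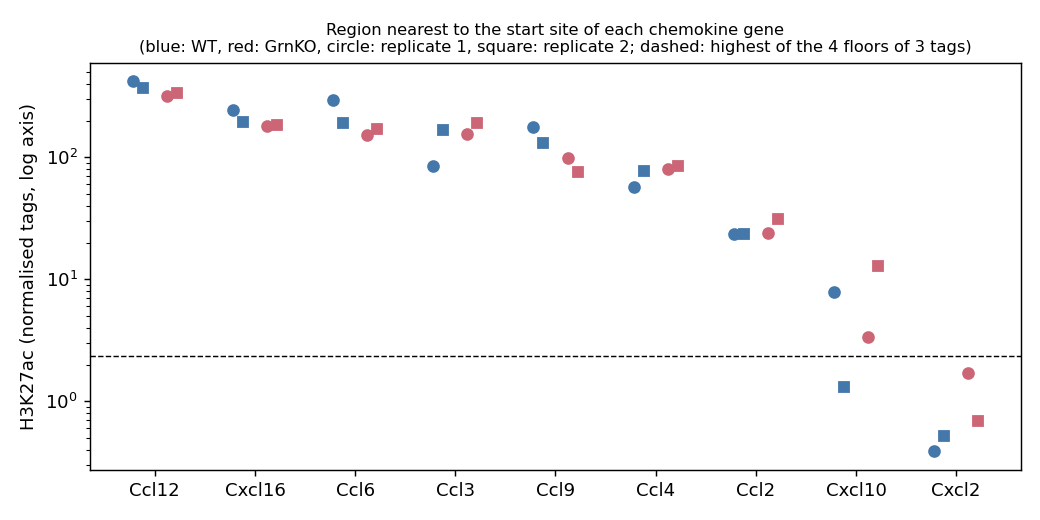
H3K27ac in the region nearest to each start site (y axis, normalised tags on a log axis) in each library, with genes ordered by their mean over the 4 libraries, WT in blue, GrnKO in red, circles for replicate 1 and squares for replicate 2. Ccl12 is highest at 315 to 419 normalised tags, and all 4 Cxcl2 values lie below the dashed line, the highest of the 4 libraries' floors of 3 tags.

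Of the 82 member regions, 66 passed the filter on low values, and the 16 that did not had mean signals of at most 5.19 normalised tags. Of the 66, 4 were called higher and 3 lower, which is 10.6%, close to the 9.71% called over all 80728 tested regions (6.80% higher and 2.92% lower). With the authors' scaling the member calls were 5 higher and 0 lower (8.56% of all regions called), and over all regions 6581 higher and 333 lower against 5488 and 2354 with TMM. At an unadjusted p under 0.05 there were 22 member regions, 14 higher and 8 lower, against 23.9% of all regions. Of the 66 tested, 4 passed the filter through GrnKO alone and 2 through WT alone, which fixed their direction. None of these 6 was called, and 2 of them are among the 14. The genotypes did not overlap at 46 of the 66 (69.7%, with 21 higher and 25 lower), against 52.7% of all regions. Within 1000 bp of a start, 11 of 13 regions were tested, with 1 higher (Ccl3) and 1 lower (Ccl9), and beyond it 55 of 69, with 3 higher and 2 lower. Without WT replicate 1 the calls were 9 higher and 2 lower (15.0% of all regions called), and without WT replicate 2 they were 11 and 3 (15.5%). Without GrnKO replicate 1 (2.40%) and without GrnKO replicate 2 (3.45%) they were 2 and 0. The 2 regions that stayed called without any single library are the Ccl3 intron and the Ccl3 region 9.66 kb past the start.

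**Figure D3:**
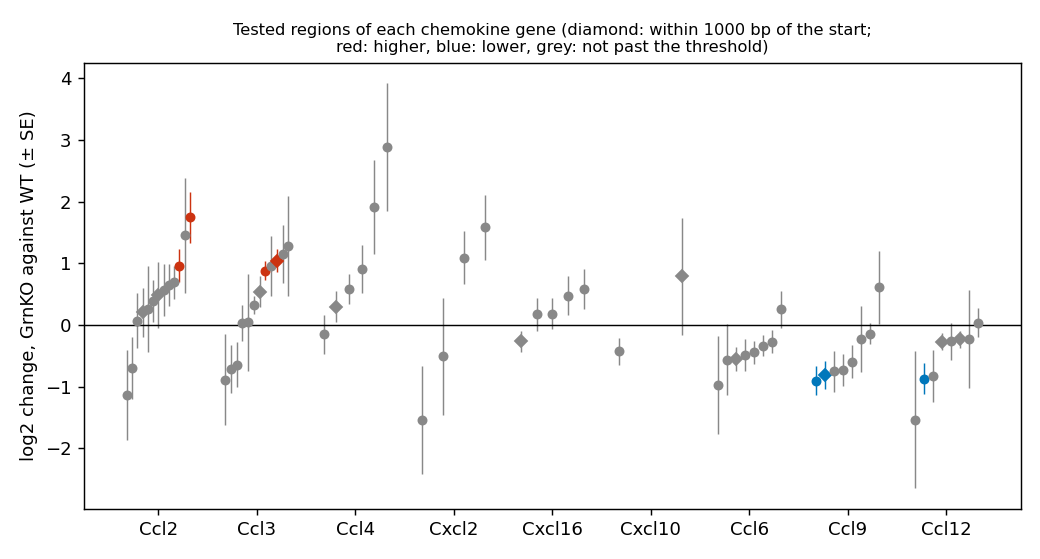
log2 change of every tested region, GrnKO against WT, with its SE (y axis), grouped by chemokine gene, with diamonds for regions within 1000 bp of the start and colour for regions past the threshold. Called higher regions are at Ccl2 and Ccl3 and called lower ones at Ccl9 and Ccl12, and no gene has calls in both directions.

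Ccl9, Ccl6, Ccl3 and Ccl4 lie in this order along chromosome 11, with starts 70.7 kb and 56.3 kb before and 13.2 kb after the Ccl3 start in table coordinates. The signs of the change differed by position along the cluster. At 19 tested regions, those of Ccl9 and Ccl6 and the 3 Ccl5 regions nearest to them, 17 log2 changes were negative and 2 positive, with 3 called lower and none higher. At the 18 tested regions of Ccl3 and Ccl4, 14 were positive and 4 negative, with 2 called higher and none lower. Of these 18, 3 passed the filter on low values through the GrnKO libraries alone, so that they had to be positive, and 1 Ccl6 region of the 19 passed through WT alone. Over all regions 6.80% were called higher and 2.92% lower. Both sets of regions were chosen after their values were seen, so the counts are a description. Neighbouring regions in these sets share up to 389 bp at Ccl6 and up to 287 bp at Ccl3, so the regions are not independent. With the authors' scaling no member region was called lower. The 3 Ccl3 regions nearest to Ccl6, 16.4 kb to 20.4 kb past the Ccl3 start, had negative values (-0.64 to -0.89), none past the threshold.

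**Figure D4:**
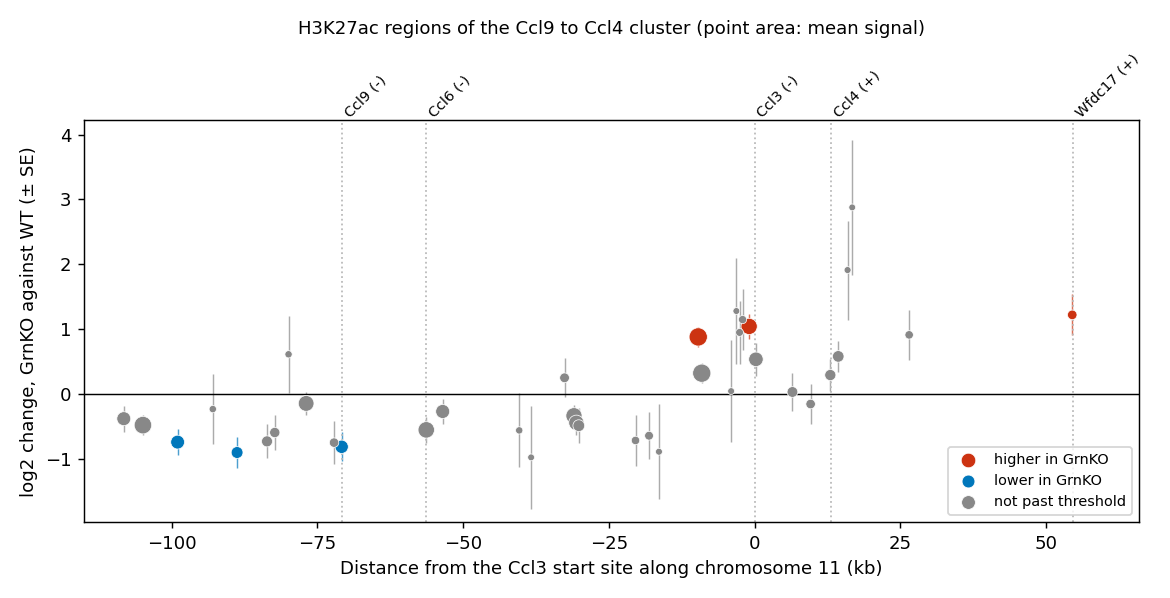
log2 change of each tested region, GrnKO against WT, with its SE (y axis) against the distance from the Ccl3 start along chromosome 11 in kb (x axis), with point area scaled to the mean signal and dotted lines at gene starts. The points left of Ccl3 are mostly below 0 and those around Ccl3 and Ccl4 mostly above 0, and the 2 red points near the Ccl3 start are the called Ccl3 regions.

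Within 50 kb of a member, 85 regions were assigned to other genes, of which 57 were tested, with 4 higher and 2 lower, a share close to the 9.71% called over all regions. In the same cluster, the promoter region of Wfdc17, 54.7 kb from the Ccl3 start, held 24.2 and 29.3 normalised tags in WT and 59.1 and 68.3 in GrnKO (log2 1.22, SE 0.32, adjusted p = 0.0197). On the other side, a region 19.9 kb before the Ccl5 start held 185 and 148 in WT and 103 and 94.8 in GrnKO (log2 -0.74, SE 0.20, adjusted p = 0.0262). Near Ccl12, the single Ccl8 region, 24.4 kb past the Ccl8 start, held 16.8 and 5.50 in WT and 30.3 and 41.1 in GrnKO (log2 1.75, SE 0.51, adjusted p = 0.0377). Near Cxcl16, 2 regions upstream of Tm4sf5 were higher in GrnKO. The stronger change was at 7.36 kb, with 34.4 and 18.1 in WT and 83.2 and 76.4 in GrnKO (log2 1.63, adjusted p = 0.00431), and the other changed by 1.44 (adjusted p = 0.00611). A region 4.33 kb before the Med11 start, also near Cxcl16, held 168 and 182 in WT and 122 and 99.2 in GrnKO (log2 -0.66, adjusted p = 0.0387). The Cxcl16 regions, which lie between these, gave no call. The Ccl5 region no longer passed without WT replicate 1 (-0.58, adjusted p = 0.0704), and the other 5 neighbouring regions did.

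Of the 29 other chemokine ligand genes listed, 24 had regions and 22 were tested, with 1 higher and 3 lower (18.2%, against 14.4% of all genes) and a median log2 change of -0.26, against -0.01 over all genes. Ccl24, an eosinophil attractant that binds Ccr3, held 374 and 372 in WT and 158 and 212 in GrnKO (log2 -1.02, SE 0.18, limma adjusted p = 0.00123). Ccl5, a CC chemokine that attracts T cells and monocytes, was lower, with 850.2 and 908 in WT and 626 and 621 in GrnKO (log2 -0.49, SE 0.12, adjusted p = 0.0118). Cxcl17 fell by 0.42 on the log2 scale (SE 0.12, adjusted p = 0.0249). Ccl8, a monocyte-attracting ligand with 1 region, was called higher at low values, 16.4 and 5.49 in WT and 30.7 and 41.5 in GrnKO (log2 1.79, SE 0.56, adjusted p = 0.0436), and edgeR on the recovered reads did not call it (adjusted p = 0.0629). With the authors' scaling, Ccl24 alone of the 3 lower ligands was called. All 4 named ligands remained past the threshold without WT replicate 1, but not all of them did in every fit that left out a library.

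The 24 listed receptor genes all had regions, and 21 were tested, with 4 higher and 7 lower (52.4%, against 14.4% of all genes) and a median log2 change of -0.25. With the authors' scaling 1 receptor was lower. Cxcr4, the receptor of Cxcl12, had the smallest p, with 556 and 395 in WT and 1563 and 1502 in GrnKO (log2 1.71, SE 0.15, limma adjusted p = 2.63e-06). Ccrl2, a non-signalling chemerin-binding relative of the receptors, also rose, from 481 and 409 in WT to 716 and 769 in GrnKO (log2 0.74, adjusted p = 0.00166). Cxcr1 rose from 8.79 and 5.23 to 49.1 and 41.8 (log2 2.57, adjusted p = 0.0031). Several receptors of members are named here after their values were seen. Cxcr3 (log2 0.43), Cxcr2 (-0.20) and Cxcr6 (-0.30) did not pass. Ccr1 fell by 0.25 on the log2 scale (adjusted p = 0.0467) and Ccr2 did not pass (-0.49, adjusted p = 0.0555). Both passed without WT replicate 1 (-0.35 and -0.48, adjusted p = 3.67e-08 and 0.0381). The Ccr1 call was lost with the authors' scaling (-0.06), with edgeR on the recovered reads (adjusted p = 0.0509), and without WT replicate 2 (-0.13, adjusted p = 0.122) or either GrnKO replicate, and over regions within 1000 bp of a start its change was positive (0.40, adjusted p = 0.771). Cx3cr1, the microglial fractalkine receptor, fell from 9609 and 10406 in WT to 7769 and 7648 in GrnKO (log2 -0.38, SE 0.07, adjusted p = 0.00241). Ccr7, Ccr1l1, Ccr3 and Ccr6 fell by 1.18, 0.59, 0.53 and 0.43 on the log2 scale (adjusted p = 0.00201, 0.00214, 0.0155 and 0.00233). Among 16 regulators of chemokine transcription, including the NF-kappaB, IRF and AP-1 genes, Jun was higher and none was lower, and the median log2 change was -0.04. Jun, an AP-1 subunit, held 3900.4 and 4375 in WT and 5351 and 5475 in GrnKO (log2 0.39, SE 0.08, adjusted p = 0.00513). Its call was lost with the authors' scaling (0.58, adjusted p = 0.185) and without GrnKO replicate 1 or 2 (adjusted p = 0.0733 and 0.0973). Without WT replicate 1, Jun and the 8 receptors Cxcr4, Ccrl2, Ccr7, Ccr1l1, Ccr6, Cx3cr1, Cxcr1 and Ccr3 remained past the threshold. Not all of the 8 receptors did in every fit that left out a library.

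**Figure D5:**
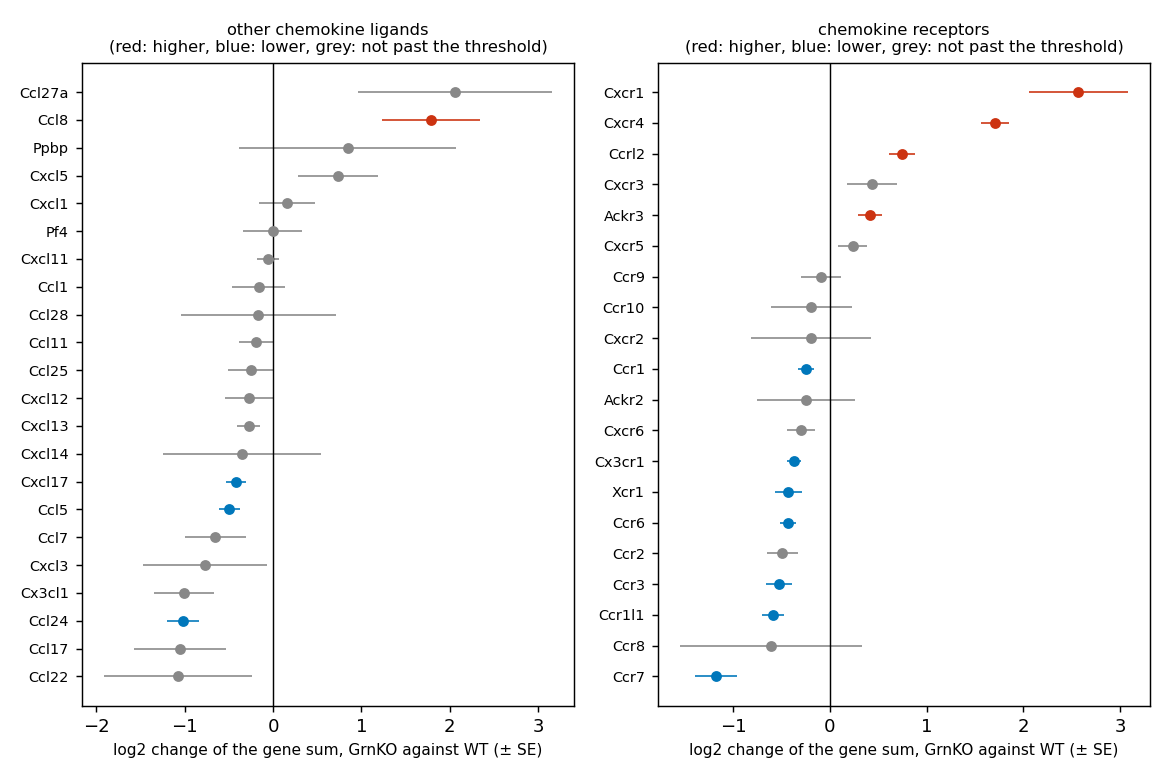
log2 change of the gene sum, GrnKO against WT, with its SE (x axis), for the 22 tested other chemokine ligands (left) and for tested receptors (right; not all are drawn), sorted by size, with red for higher, blue for lower and grey for not past the threshold. Ccl8 is the 1 red ligand, and Cxcr1 and Cxcr4 have the largest changes of the 4 red receptors.

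Marker genes of several cell types moved with genotype beside these results, and their part in the chemokine differences was not tested. The 8 microglia markers summed to 39655 to 42674 normalised tags in WT and 34661 to 35051 in GrnKO, with Tmem119, Sall1 and Siglech called lower and Fcrls higher in both GrnKO libraries without passing (log2 0.25). The 7 border macrophage markers summed to 1218 to 1228 in WT and 1666 to 1859 in GrnKO, with Ms4a7, Colec12 and F13a1 called higher, while Mrc1 (log2 0.14), Cd163 (-0.05), Lyve1 (-0.76) and Cbr2 (-0.20) did not pass. The monocyte markers summed to 638 to 675 in WT and 424 to 515 in GrnKO with none called, and the promoter of Vcan was at 0 in 3 of the 4 libraries. The neutrophil markers summed to 71.3 to 117 in WT and 89.6 to 103 in GrnKO, with S100a8 called higher from 1 region that passed the filter through GrnKO alone, while Mmp8 (log2 0.41), Ltf (0.30), Ngp (-0.89), Retnlg (-0.92) and Elane (-0.78) did not pass the test. The T and NK cell markers summed to 159 to 178 and 167 to 173, and the promoter of Cd2 was at 0 in 3 of the 4 libraries. The B cell markers summed to 309 to 339 in WT and 591 to 712 in GrnKO through Ms4a1, while Cd79b (log2 -0.12) did not pass. The promoter of Cd79b held 29.7 and 11.5 in WT and 7.64 and 8.54 in GrnKO, and that of Pax5 was at 0 to 0.566. The endothelial markers summed to 1459 to 1681 in WT and 2069 to 2282 in GrnKO, with Flt1 called higher (log2 0.99), while Kdr (0.30), Cldn5 (0.15) and Cdh5 (-0.03) did not pass. The astrocyte, oligodendrocyte and neuron markers summed to 3391 to 3407, 1965 to 2091 and 245 to 285 in WT, and 3206 to 3244, 2579 to 2716 and 159 to 192 in GrnKO. Mbp was called higher and Mog and Syt1 lower, while the promoters of Olig2 and Map2 were at 0 to 2.26. The promoters of Mbp, Mog and Slc1a3 held 18.6 to 51.8, 25.1 to 54.0 and 176 to 211.

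For each called member, the 3 genes with the most similar pattern were taken as those with the smallest Euclidean distance between log2 values centred over the 4 H3K27ac libraries. Each pattern rests on 4 values that all genes take from the same libraries. For Ccl3 they were 2510009E07Rik, Tmem206 and Mlycd (distances 0.038, 0.042 and 0.050). For Ccl2 they were Gnai3, Mtg2 and Cacnb1 (0.028, 0.046 and 0.052), and for Ccl9 Mllt3, Egr3 and Gdi2 (0.018, 0.024 and 0.029).

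The input libraries give the background at the same places. Over the 66 tested member regions, with 1 added to both, the median ratio of H3K27ac to input was 22.2 ± 8.42 for WT (SD, n = 2), compared with 19.7 ± 5.20 for GrnKO (SD, n = 2). With 5 added the order turned, to 5.99 in WT and 6.99 in GrnKO, so no direction is read from it. Inputs were shallow, and 34.1% to 90.2% of the 82 member regions held no input tag. The input sum of Ccl3 was 0 in WT replicate 1 and 31.5 to 65.3 scaled tags in the other 3 inputs. The Ccl2 input sum was 199 in WT replicate 1 and 32.1 to 72.8 in the others, and 130 of the 199 scaled tags came from the single region 2.73 kb before the Ccl2 start. A contrast of H3K27ac with input between genotypes called no member and no other gene or region.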

How the data were processed

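H3K27ac and input ChIP-seq were measured in 8 libraries. Per the file headers, the authors' deposited values are a signal: tags per 800 bp region, scaled to 10000000 tags per library. The regions are ATAC-seq peaks kept by reproducibility and merged, in a list that carries labels of other knockout lines. The submitters' processing notes name Bowtie2, HOMER, DESeq2 and mm10, with no versions or roles. Coordinates are as the table gives them. The start sites they imply equalled the GRCm38.p6 gene table within 10 bp for 8 of 9 members.

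Multiplying by the library totals returned whole read ends (2 per tag, tolerance 0.05) for 100% of values, so 3 tags, the floor, are known per library. Reads carry no molecular identifiers, so floors cover counting error only. Since the deposited unit is signal, the main test was limma 3.58.1 (lmFit, eBayes with trend) in R 4.3.3, on log2(value + 1) of TMM-scaled values (edgeR 4.0.16). Genotype was the only term, with the 4 H3K27ac libraries. Regions and gene sums were kept by filterByExpr (minimum 10) on recovered tags and fitted separately, with their own TMM factors (regions 0.825, 1.04, 1.08 and 1.08 for WT 1, WT 2, GrnKO 1 and GrnKO 2; genes 0.845, 1.04, 1.07 and 1.07). The fold change on this scale understates the change of low regions. The scripts were tested on simulated data.

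Replicates were separate pools of 2 mice. Numbers come from the titles; same-numbered samples are not said to share anything, and their deviations correlated at r = 0.034 over regions. Named were all 9 members, their called, start-nearest and highest regions, the called ligands, receptors and regulators (at most 8 per list, by p), called regions within 50 kb, and the 3 most similar genes per called member. Members and lists were chosen with earlier results of these data known. Alternatives were the authors' scaling, DESeq2 size factors, edgeR and DESeq2 1.42.0 on recovered counts (edgeR on read ends, DESeq2 on tags), no filter, pseudocounts of 0.5 and 5, each library left out, a replicate block, an input contrast, and other region sums. Some members of the receptor and marker lists are counted in their lists and not reported here by name.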

Additional observations from a re-analysis of the deposited data

How the results depend on the processing

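Of 663 recomputed values of 50 single genes and regions, leaving the input contrast aside, 550 kept their direction and side of the threshold, 87 kept their direction but were no longer called, 19 became called and 7 reversed. The causes were not tested unless said. Member regions called (4 higher, 3 lower) became 0 lower with the authors' scaling, 1 lower with no filter (4.5% of all regions called), and 5 lower at an adjusted p under 0.1 (14.5%). Member genes called (2 higher, 1 lower) became 0 lower with the authors' scaling, 2 lower at an adjusted p under 0.1 (19.4% of all genes called), and 1 higher and 0 lower over regions within 1000 bp of a start (5.49%), where Cxcl10, Cxcl16 and Ccr1 reversed (log2 0.81, -0.24 and 0.40). Leaving out 1 library gave 2 to 11 higher and 0 to 3 lower regions, and 0 to 3 higher and 0 to 3 lower genes. These fits assume that the lone sample varies like the other group. In them the Cxcl16 sum ranged from -0.085 (without WT replicate 2) to 0.33, and the Cxcl10 start from -0.15 (without WT replicate 2; -0.03 without GrnKO replicate 2) to 1.79. With the authors' scaling the Ccl9 region 6.18 kb from its start was 0.082. The other ligands (1 higher, 3 lower) became 1 lower with the authors' scaling, 0 higher with edgeR, DESeq2 or no filter, 0 and 0 within 1000 bp of a start, and 0 to 1 higher and 1 to 4 lower without 1 library. The receptors (4 higher, 7 lower) became 1 lower with the authors' scaling, 2 higher and 1 lower within 1000 bp, and 2 to 4 higher and 3 to 9 lower without 1 library. The regulators (1 higher, 0 lower) became 0 higher with the authors' scaling and within 1000 bp, and 0 to 2 higher and 0 to 1 lower without 1 library. The replicate block, in numbers that do not pair samples, called 2 member genes lower, Ccl6 among them, 3 higher with Ccl4 (adjusted p = 0.0259), and 2977 genes in place of 2218. The contrast with input called 0 regions and 0 genes in both directions and for every list, with 6137 regions and 861 genes at an unadjusted p under 0.05. The cause was not tested. In that contrast the median log2 value was -0.64 over all genes and -0.42 over all regions, so its values are not centred. In it Ccl3 was -3.58, Ccl4 -2.34, Ccl12 0.14, Cxcl2 -2.76 and Cxcl16 -4.61. Its region values were 0.29 at the Ccl12 start, 1.39 at the Ccl9 region 18.0 kb away, -4.35, -2.14 and -1.23 at the Ccl3 regions 9.66 kb and 9.05 kb away and at the start, -1.04 at Cxcl2 and 0.88 at Ccl5. Cxcl17 was 1.25, Cxcr4 -2.86, Ccrl2 -1.35, Ccr6 0.70 and Cx3cr1 0.14. With 5 added, the median ratios to input were 5.99 in WT and 6.99 in GrnKO.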
